A study of Mus musculus with 6 samples.

Results

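Ptx3, Tnfaip6, Has1, Has2, Vcan and Cd44 are 6 genes that make, organise or bind the hyaluronan matrix around cells. They were followed here in the cardiac side population (SP), out of 50600 genes in the deposited count table. All 6 passed the filter on low values and were among the 13475 protein-coding genes tested. The genes were chosen by name, with their genotype differences in these libraries already known, because Ptx3 ranked first by p-value among the genes that were lower in the libraries labelled flt3L-/- and the other 5 belong to the matrix that PTX3 helps to build. The genotype differences of the 6 genes are therefore given as a description, without a test.

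Hyaluronan is a long, unbranched sugar polymer that synthases at the plasma membrane extrude straight into the space around the cell. Versican, a large proteoglycan, binds along the chain. TSG-6, the protein of Tnfaip6, moves heavy chains of inter-alpha-inhibitor from plasma onto hyaluronan, and PTX3, a secreted long pentraxin that also takes part in innate immunity, binds these heavy chains and TSG-6 and so helps to cross-link the matrix. CD44 is the main cell surface receptor for hyaluronan. In the heart, stromal cells such as fibroblasts are a major source of this matrix, which expands after injury and in inflammation.

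SP cells are recognised in the heart by their extrusion of the Hoechst dye, and were sorted here after depletion of cardiomyocytes and erythrocytes. RNA-seq was done on 3 sorts from wild-type (wt) C57BL/6NRj mice and 3 from flt3L-/- mice of the strain C57BL/6Flt3Ltml/mx, all young adults with no treatment, with 4 mice pooled for each sort and library. The knockout is in the germline and the labels give the animals as 2 strains, so differences between the colonies cannot be told apart from those of the allele. A wt and an flt3L-/- sort were made on each of 3 dates, 22 August 2016, 24 August 2016 and 29 August 2017, and these pairs are numbered 1, 2 and 3. Total counts per library lay between 24370913 and 31145519. Counts were scaled to CPM, the counts of a gene per 1000000 counts on the tested genes of the library after TMM scaling, and 3 counts, taken as the detection limit, were 0.109 to 0.127 CPM, a limit that covers counting error only.

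Flt3l, the gene targeted in these mice, had 8.67, 10.8 and 12.1 CPM in wt pairs 1, 2 and 3. In the libraries labelled flt3L-/- it had 13.6, 12.4 and 14.4 CPM, so every one of them lay above every wt library. Reads of Flt3l were thus not reduced where the label names the knockout, and the direction of every difference here rests on the labels. Of its exon bases, 22.1% also belong to Gm45713, and which exons the allele removes was not checked. Genes known for the SP were present in all 6 libraries. Abcg2, a dye efflux pump, had 147 to 274 CPM, Abcb1a, another efflux pump, 121 to 156 CPM, and Ly6a, which encodes Sca1, 523 to 1791 CPM. The endothelial marker Pecam1 had 873 to 1524 CPM, and the leukocyte marker Ptprc, at 79.2 to 596 CPM, differed more between libraries.

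The upstream regions of Ptx3, Tnfaip6 and Has1 are shown because inflammatory signals induce these genes in many cells, and because Ptx3 had the widest range over the libraries, Tnfaip6 the highest level and Has1 a low level in 1 library. They come from RefSeq (GRCm38.p6), which gave a promoter for 5 of the 6 genes, all but Has2, and each is printed 5′ to 3′ on the strand of the gene up to the base before the GENCODE start. Capitals mark motifs found by a search on both strands. Ptx3 lies at chr3:66219637-66219909 (plus strand), Tnfaip6 at chr2:52037863-52038008 (plus strand) and Has1 at chr17:17855206-17855438 (minus strand).
Ptx3: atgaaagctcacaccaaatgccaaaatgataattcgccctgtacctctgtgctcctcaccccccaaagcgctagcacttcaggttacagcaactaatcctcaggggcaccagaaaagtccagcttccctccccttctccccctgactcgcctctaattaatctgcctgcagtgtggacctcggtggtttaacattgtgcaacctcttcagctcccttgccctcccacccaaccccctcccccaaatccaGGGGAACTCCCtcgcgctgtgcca
Tnfaip6: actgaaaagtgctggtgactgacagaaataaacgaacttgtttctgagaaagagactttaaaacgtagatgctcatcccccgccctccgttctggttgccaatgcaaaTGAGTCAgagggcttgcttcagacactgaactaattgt
Has1: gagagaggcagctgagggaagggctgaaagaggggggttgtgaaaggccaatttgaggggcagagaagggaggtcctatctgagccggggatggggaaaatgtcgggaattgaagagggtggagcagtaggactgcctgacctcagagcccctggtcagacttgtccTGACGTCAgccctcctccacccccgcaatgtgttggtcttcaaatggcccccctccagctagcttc

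The Ptx3 run in capitals holds 2 overlapping matches to the NF-kB motif, 1 on each strand, and starts 24 bases before the GENCODE start and 1 base before the RefSeq start. That motif was present in 4.51% of all 32851 promoter windows of 300 bases. Tnfaip6 holds the AP-1 motif TGANTCA 38 bases before its GENCODE start, which 7.81% of the windows also hold. Has1 holds the cyclic AMP response element TGACGTCA 66 bases before its GENCODE start, which 1.79% of the windows hold. No match to TATAAA, present in 13.6% of the windows, lay in the windows of the 5 genes, and the windows of Vcan and Cd44 held none of the 4 motifs. The motifs were chosen after the sequences had been seen, and a match describes letters only.

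Ptx3 (ENSMUSG00000027832, chr3:66219910-66225805, plus strand of GRCm38) encodes the long pentraxin PTX3. It had 308, 91.6 and 24.7 CPM in wt pairs 1, 2 and 3, and 132, 26.1 and 9.30 CPM in the partner libraries labelled flt3L-/-. Its level was lower in the flt3L-/- library of every pair, by 2.34-fold, 3.50-fold and 2.65-fold, but the groups overlapped, since wt pair 3 lay below the flt3L-/- library of pair 1. The group means were 142 ± 148 CPM (SD, n = 3) for wt, against 55.7 ± 66.4 CPM (SD, n = 3) for the libraries labelled flt3L-/-. The fitted log2 fold change, with the sorting date as a covariate, was −1.48 (standard error 0.17), and the 3 pair differences of −1.23, −1.81 and −1.40 on the log2 scale had an SD of 0.30. Ptx3 thus varied far more between dates than between genotypes while the gap within a date stayed similar. A choice by p-value in this contrast favours a gene whose pair differences are even, so this evenness is a description and not a separate result.

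**Figure D1:**
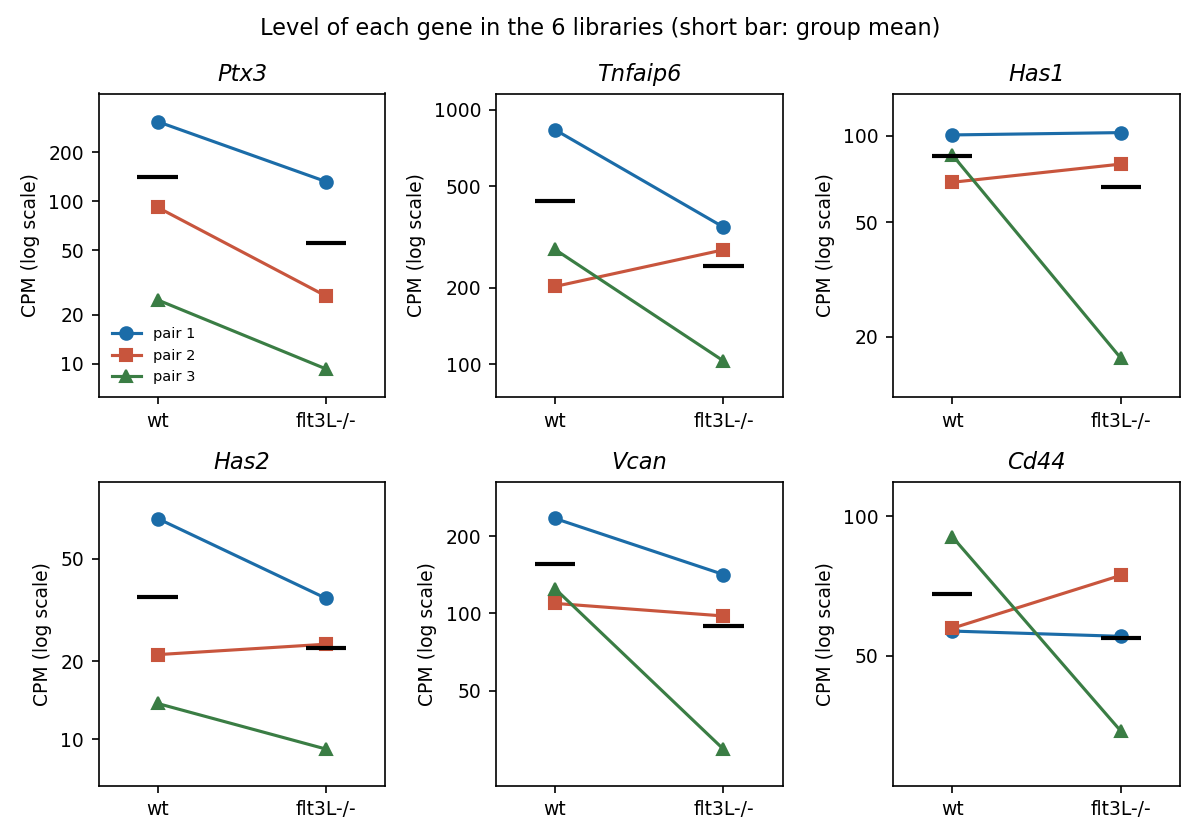
Level of each of the 6 genes in CPM (log axis) in the wt and flt3L-/- libraries, with lines joining the libraries of a pair and short bars at the group means (n = 3 libraries a group). The 3 Ptx3 lines slope down side by side from well separated wt levels of 308, 91.6 and 24.7 CPM, while the pair 2 lines of Tnfaip6, Has1, Has2 and Cd44 slope up.

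Tnfaip6 (ENSMUSG00000053475, chr2:52038009-52056686, plus strand) encodes TSG-6. It had 834, 202 and 282 CPM in wt pairs 1, 2 and 3, and 346, 281 and 103 CPM in the partner libraries labelled flt3L-/-. Unlike Ptx3 it was lower in pairs 1 and 3 only, with pair differences of −1.27, 0.48 and −1.46 on the log2 scale and an SD of 1.07. The fitted log2 fold change was −0.77 (standard error 0.43).

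Has1 (ENSMUSG00000003665, chr17:17843323-17855205, minus strand) and Has2 (ENSMUSG00000022367, chr15:56665627-56694539, minus strand) encode hyaluronan synthases. Has1 had 101, 69.0 and 86.0 CPM in wt pairs 1, 2 and 3, and 103, 79.8 and 16.9 CPM in the partner libraries labelled flt3L-/-. Its 5 highest libraries lay within a narrow band and 1 library, the flt3L-/- library of pair 3, stood 5.08-fold below its wt partner. The fitted log2 fold change of Has1, −0.65 (standard error 0.57), came from that pair, since the differences in pairs 1 and 2 were 0.027 and 0.21, and without pair 3 the value was 0.12.

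Has2 had 71.7, 21.3 and 13.7 CPM in wt pairs 1, 2 and 3, and 35.1, 23.3 and 9.14 CPM in the partner libraries labelled flt3L-/-. Both groups held their highest level on the first date and their lowest on the last. The pair differences were −1.03, 0.13 and −0.58, and the fitted log2 fold change was −0.50 (standard error 0.26). The antisense gene Has2os shares 4.3% of the exon bases of Has2, and the unstranded reads there cannot be told apart. Per kb of exons, Has1 made up 56.1% to 83.3% of the summed level of Has1, Has2 and Has3, with Has3, a further synthase, between 2.26 and 4.96 CPM.

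Vcan (ENSMUSG00000021614, chr13:89655312-89742509, minus strand) encodes versican. It had 234, 109 and 125 CPM in wt pairs 1, 2 and 3, and 142, 97.8 and 29.6 CPM in the partner libraries labelled flt3L-/-. It was lower in every pair, as Ptx3 was, but unevenly, with pair differences of −0.73, −0.16 and −2.08 and a fitted log2 fold change of −0.98 (standard error 0.40). Without pair 3 the fitted value was −0.44.

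Cd44 (ENSMUSG00000005087, chr2:102811141-102901665, minus strand) encodes the hyaluronan receptor. It had 56.5, 57.3 and 90.3 CPM in wt pairs 1, 2 and 3, and 55.1, 74.5 and 34.4 CPM in the partner libraries labelled flt3L-/-. Its levels spanned the narrowest range of the 6 genes, with pair differences of −0.038, 0.38 and −1.39. The fitted log2 fold change of −0.34 (standard error 0.37) changed sign to 0.17 without pair 3.

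Across the 6 genes, 2 (Ptx3 and Vcan) were lower in the flt3L-/- library of every pair, as were 11.5% of all genes tested, and 0 were higher in every pair, as were 14.2%. None had every wt library above every flt3L-/- library, where 2.92% of all genes did, and none the reverse, where 3.53% did. All 6 had a fitted log2 fold change under 0, against 50% of all genes, and a median of −0.71 against −0.00027. All 6 also had their lowest level in 1 library, the flt3L-/- library of pair 3, as did 25.2% of all genes. Over all genes, edgeR's quasi-likelihood test called 0% for the genotype at an adjusted p under 0.05, and 484 genes (3.59%) had an unadjusted p under 0.05. DESeq2 called 21. These counts describe the 6 genes and support nothing about them, since the choice of Ptx3 used the same contrast.

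**Figure D2:**
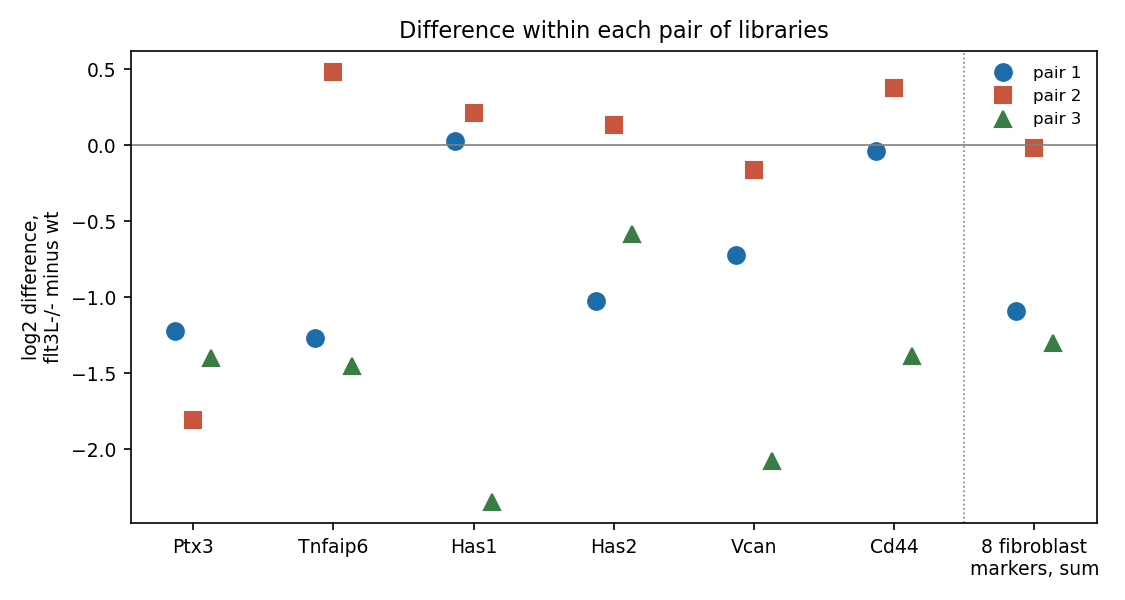
Log2 difference of the flt3L-/- library from the wt library of the same date for the 6 genes and, to the right of the dotted line, for the summed CPM of 8 fibroblast marker genes. Points are single pairs; Ptx3 has its 3 points between −1.81 and −1.23, whereas pair 2 lies at or above −0.16 for the other 5 genes and at −0.019 for the fibroblast sum.

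Levels can be compared between genes only per length, and the following values are CPM per kb of exons. Tnfaip6 was the highest of the 6 genes in all 6 libraries, with a mean of 200 (range 60.2 to 488), above 94.2% to 99.6% of the genes tested. Ptx3 followed with a mean of 36.8, but its range of 3.47 to 115 placed it above 43.1% of the genes tested in the lowest library and above 97.6% in the highest. It ranked 2 of the 6 in both libraries of pair 1 and in wt pair 2, and ranked 4 in the other 3 libraries. Has1 had a mean of 16.8 (range 3.73 to 22.7), Cd44 9.06 (5.08 to 13.3), Vcan 8.50 (2.05 to 16.2) and Has2 6.86 (2.16 to 16.9). The ranges of Ptx3, Has1, Cd44, Vcan and Has2 overlapped, and the order of the last 3 changed from library to library.

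**Figure D3:**
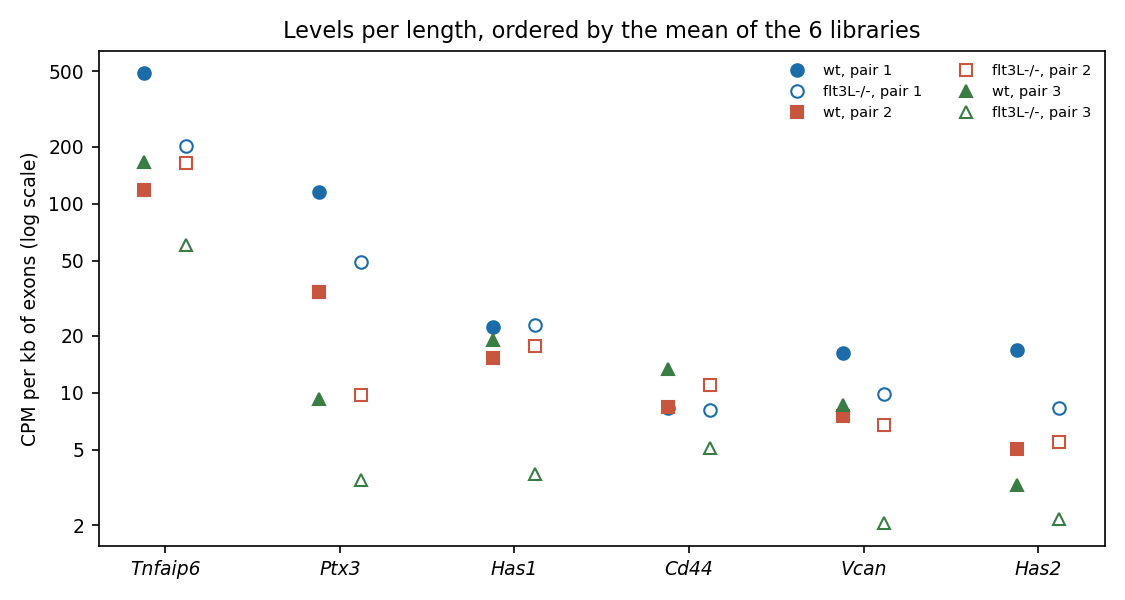
CPM per kb of exons (log axis) of the 6 genes, ordered by their mean over the 6 libraries, with filled symbols for wt, open symbols for flt3L-/- and shapes for the pairs. Tnfaip6 lies on top in every library, from 60.2 to 488, and Ptx3 spans the widest range, from 3.47 to 115.

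Between its highest and lowest library Ptx3 differed 33.2-fold, a wider log2 range than 99.3% of the genes tested had. The same fold was 8.11 for Tnfaip6, 7.92 for Vcan, 7.84 for Has2, 6.09 for Has1 and 2.62 for Cd44, against a median of 1.72 over all genes. The Tnfaip6 level was 3.46 to 4.24 times that of Ptx3, per kb, in both libraries of pair 1 and in wt pair 2. In the other 3 libraries it was 16.9 to 17.9 times that of Ptx3. The ratio therefore took 2 separate ranges, and pair 2 was the only date whose wt and flt3L-/- libraries fell in different ones.

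The sorting date is a comparison that did not serve to choose the genes. In a fit over both genotypes, Ptx3 was 4.11-fold lower on the second date and 13.3-fold lower on the third than on the first. Its unadjusted p for the date was 3.97e-05 in edgeR's quasi-likelihood test, but the adjusted p over all genes tested was 0.501. Has2 was 4.55-fold lower on the third date than on the first (unadjusted p = 0.00344 and adjusted p = 0.598 in the same fit). Over all genes tested, 0% had an adjusted p under 0.05 for the date and 8.28% an unadjusted one. The date was called for Ptx3 under DESeq2 (adjusted p = 4.00e-37) and in edgeR without pair 2 (adjusted p = 0.0428), and for Has2 likewise (3.96e-05 under DESeq2 and 0.0441 in edgeR without pair 2). The small spread that remains for Ptx3 after date and genotype enters both the date test and the contrast by which it was noticed, so the date test is not wholly separate from the choice.

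Tnfaip6, Vcan, Has1 and Cd44 had adjusted p-values for the date of 0.602, 0.602, 0.693 and 0.927 in edgeR. Ptx3 and Has2 were lower on each date than on the one before in both genotypes, as 5.86% of all genes were. Of the 6 genes, 5, all but Cd44, were highest on the first date in both genotypes, against 12.1% of all genes. With 1 library per genotype and date, the sort, the day and the preparation of a library cannot be told apart.

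Markers of stromal cells and of leukocytes were low in some of the same libraries. The summed CPM of 8 fibroblast markers (Pdgfra, Dpt, Lum, Col1a1, Col1a2, Tcf21, Pi16 and Mfap5) was 5550, 3828 and 2500 in wt pairs 1, 2 and 3, and 2602, 3778 and 1012 in the libraries labelled flt3L-/-. Its log2 pair differences were −1.09, −0.019 and −1.31, and all 8 markers had a fitted log2 fold change under 0. The sum of 8 pericyte and smooth muscle markers differed by −0.72, 0.19 and −0.85. Of these 8, 7 had a fitted log2 fold change under 0, but single markers differed from the sum. Rgs5 had −0.36, 0.25 and −0.023, Cspg4 −1.19, 0.61 and 0.83, and Pdgfrb −0.73, 0.22 and −1.36, while Myh11 and Abcc9 were lower in each pair. In pair 3 Pdgfrb alone held 173 of the 465 CPM in wt and 67.0 of the 259 CPM in the library labelled flt3L-/-. Both sums were lower in the flt3L-/- library than in its wt partner in pairs 1 and 3. In pair 2 they were close to or above wt, which is also the order seen for Tnfaip6 and Has2. Wt pair 1 had the highest value of both sums, and the flt3L-/- library of pair 1 lay above wt pair 3 in both. Endothelial markers summed to 6613 to 8741 CPM and none of their defining genes was at 0. The flt3L-/- library of pair 3, where all 6 genes were lowest, was also low in leukocyte markers. Against its wt partner the log2 difference was −4.27 for the sum of 8 macrophage and monocyte markers, −4.06 for 6 neutrophil markers and −2.76 for 7 lymphocyte and NK cell markers. In pairs 1 and 2 these differences were 2.57 and 0.63 for macrophages and monocytes, 6.44 and 1.10 for neutrophils, and −0.58 and −0.0099 for lymphocytes and NK cells. Lyz2 alone held 1527 of the 1728 CPM of the macrophage sum in wt pair 3, and 17.1 of 49.5 CPM in wt pair 1. In pair 3 Cd163 lay at 0.13 and the other genes of that sum below 0. Ccr2 was lower in each pair (−0.30, −0.84 and −4.64), unlike the sum. The lymphocyte and NK cell sum was lower in pairs 1 and 3 and nearly level in pair 2, as the fibroblast sum was, but its genes differed. Its largest gene, the NK cell marker Nkg7, had −1.07, −0.17 and −3.14, and Klrb1c and Ncr1 were also lower in each pair. The T cell markers Cd3e (1.87, 0.61 and −1.88) and Cd3d (1.83, 0.84 and −1.58) were higher in pairs 1 and 2. The macrophage sum (49.5 to 1728 CPM) and the neutrophil sum (1.90 to 234 CPM) were lowest in wt pair 1, where Ptx3 and Tnfaip6 were highest, and the lymphocyte and NK cell sum (25.8 to 175 CPM) was lowest in the flt3L-/- library of pair 3. In such bulk samples, fewer cells of a type and less RNA per cell cannot be told apart, and the part of the stromal and leukocyte markers in the differences was not tested.

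Relative to the summed fibroblast markers, a scaling chosen after the values were seen, the pair differences of Ptx3 were −0.13, −1.79 and −0.098 on the log2 scale. The Ptx3 difference in pairs 1 and 3 was thus close to that of this sum, and most of what remained lay in pair 2. The sum is weighted to abundant genes, with Lum at 2116 of its 5550 CPM in wt pair 1, and single markers differed from it. In pairs 1 and 3, Pdgfra had −0.48 and −2.06, Dpt −1.56 and −0.49, and Lum −1.46 and −0.81. Without the collagens Col1a1 and Col1a2 in the sum, the Ptx3 values were −0.032, −2.08 and −0.38. Relative to the pericyte and smooth muscle sum, from which single markers also differed, the Ptx3 values were −0.50, −2.0 and −0.56. Tnfaip6 kept −0.18, 0.50 and −0.15 against the fibroblast sum, and Has2 lay at 0.064, 0.15 and 0.72. Has1 ran from 1.12 to −1.04, Vcan from 0.37 to −0.77 and Cd44 from 1.05 to −0.084 between pairs 1 and 3. Relative to the fibroblast sum, Ptx3 was still 5.62-fold higher on date 1 than on date 3 in wt and 5.51-fold higher in the libraries labelled flt3L-/-, and the sum itself was 2.22-fold and 2.57-fold higher.

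The rest of the matrix pathway was read from 10 lists with 95 genes, of which 76 were tested. No gene was called for the genotype (adjusted p under 0.05, edgeR's quasi-likelihood test). At an unadjusted p under 0.05, 3 were lower and 3 were higher in the libraries labelled flt3L-/-, against 2.49% and 1.11% of all genes, and DESeq2 called 21 of all genes tested. The median log2 fold change of the 76 genes was −0.095, and 49 lay below 0.

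None of the enzymes that make the sugar precursors of hyaluronan passed the test. Gfpt2, of the hexosamine pathway, had 596, 443 and 399 CPM in wt and 564, 665 and 138 CPM in the partner libraries labelled flt3L-/-. Ugdh, which makes UDP-glucuronic acid, had 470, 254 and 275 CPM against 358, 327 and 159 CPM. Both were low in the same flt3L-/- library of pair 3 as the 6 genes. The median log2 fold change of the 9 synthesis genes was −0.20 (0.066 without pair 3), with 0 of 9 under an unadjusted p of 0.05.

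Of the genes of hyaluronan breakdown, 7 of 9 were tested, with a median of 0.021. Hyal2, a hyaluronidase anchored to the cell surface, had 78.3, 91.5 and 125 CPM in wt and 135, 111 and 187 CPM in the partner libraries labelled flt3L-/-, higher in each pair. The log2 change of Hyal2 was 0.55 (standard error 0.15, unadjusted p = 0.0170 in edgeR). Cemip2, which encodes another cell surface hyaluronidase, had a log2 fold change of −0.029. The hyaluronan receptors and uptake genes had a median of −0.085 over 6 tested, with Stab1, a scavenger receptor, at −0.092 and Tlr2, a receptor that fragments of the polymer can engage, at −0.39.

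Among the inter-alpha-inhibitor chains, a family of which TSG-6 couples some members to hyaluronan, Itih5 was the most abundant. It had 595, 226 and 220 CPM in wt and 222, 219 and 83.9 CPM in the partner libraries labelled flt3L-/-, and a log2 change of −0.96 (standard error 0.33, unadjusted p = 0.0336 in edgeR). The pair differences of −1.43, −0.048 and −1.39 followed those of the fibroblast sum. Itih2 had a log2 fold change of −0.70 and was lower in each pair. All 4 tested members of this list of 6 lay below 0, with a median of −0.63.

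The versican partners and cleaving enzymes had a median of −0.38 over 10 tested, and between −0.12 and −0.11 under 3 other filters on low values. Fbn1, which encodes the microfibril protein fibrillin-1, had 354, 351 and 120 CPM in wt and 250, 162 and 37.0 CPM in the partner libraries labelled flt3L-/-. It was lower in each pair, by −1.10 on the log2 scale (standard error 0.26, unadjusted p = 0.00873 in edgeR), and Gm9913 overlaps 20.1% of its exon bases. Adamts1, a versican-cleaving protease, and Fbln2, a fibulin that binds versican, lay at −0.11 and −0.016. The other lecticans and link proteins had 3 of 7 tested, Hapln1, a link protein that ties proteoglycans to hyaluronan, at −0.16, Bcan, which encodes brevican, at −0.69 and 1 more, with levels under 16 CPM in every library.

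Of the other pentraxins, 2 of 6 were tested, and Crp and Apcs, the short pentraxins of plasma, had at most 0.310 and 0 CPM. The neuronal pentraxin gene Nptx1 had a log2 fold change of 0.33 and Nptxr, a membrane-bound family member, −0.47. The ligands of PTX3 had a median of −0.0087 over 6 of 10 tested, and of 0.15 without pair 1. Selp, which encodes P-selectin, lay at 0.14.

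The genes of proteins that work with CD44 had a median of 0.11 over 9 tested, which turned to −0.15 without pair 1, with Msn and Rdx, linkers of membrane proteins to actin, at 0.11 and 0.016. Genes that IL-1, TNF or bacterial lipopolysaccharide induce, as they do Ptx3 and Tnfaip6, were listed together with receptors for IL-1 and TNF. This list had a median of −0.14 over 20 tested, and of 0.053 without pair 1. Tnf and Icam1, an adhesion molecule, were higher in each pair, with log2 fold changes of 0.77 and 0.49 (standard errors 0.27 and 0.16, unadjusted p = 0.0391 and 0.0312 in edgeR), and Gm47079 overlaps 11.7% of the exon bases of Icam1. Nfkbia, an inhibitor and target of NF-kB, lay at 0.19.

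**Figure D4:**
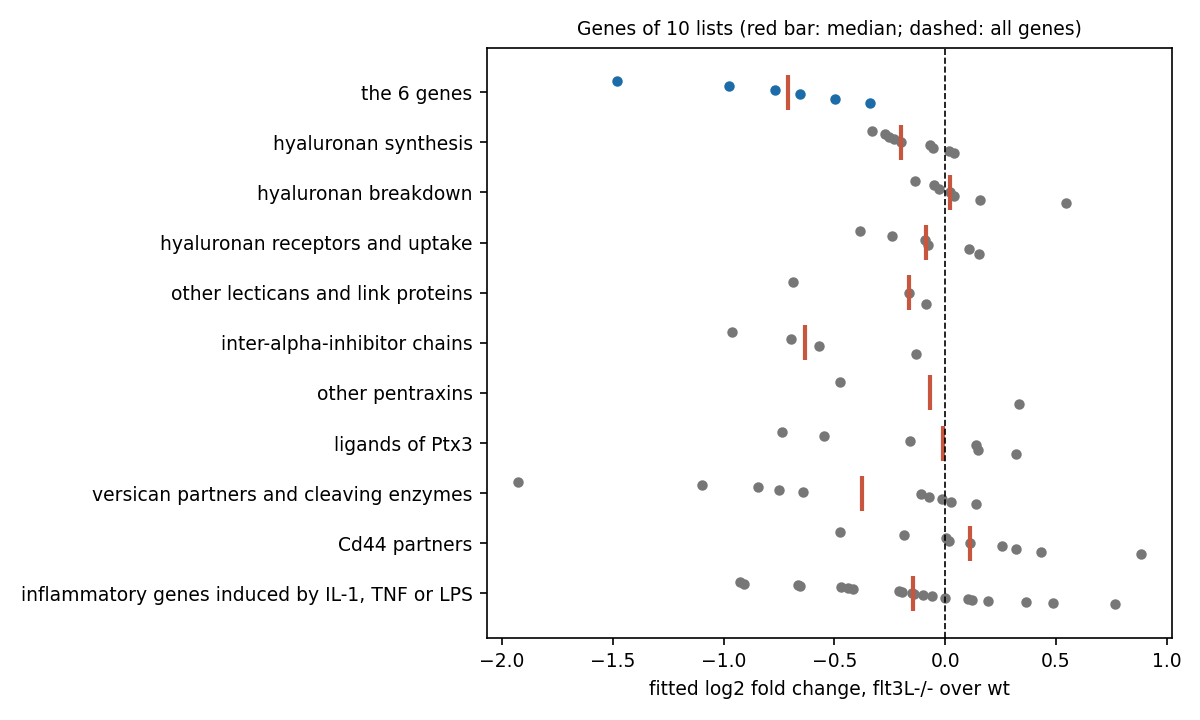
Fitted log2 fold change (flt3L-/- over wt) of each tested gene of the 10 lists and of the 6 genes (top row, blue), 1 point a gene, with red bars at the medians and a dashed line at the median of all genes. The median of the 6 genes is −0.71, that of the inter-alpha-inhibitor chains −0.63 and that of the Cd44 partners 0.11.

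The genes most like Ptx3 were sought over the 6 libraries by the root mean square difference of the mean-centred log2 CPM. The closest were Fzd9, which encodes a Wnt receptor (0.23), Gfap, an intermediate filament gene of glia (0.38), Aard (0.43), Fjx1 (0.48) and Ror1, which encodes a receptor for Wnt5a (0.53), against a median of 1.73 over all genes. Fzd9 had 7.54, 3.14 and 0.633 CPM in wt and 4.48, 0.976 and 0.237 CPM in the partner libraries labelled flt3L-/-, and Gfap had at most 2.57 CPM, so these levels were low. None of the other 5 members was among them, and Has2 came closest at place 96 with 0.89. The Schwann cell marker Sox10 was at or under the detection limit in all 6 libraries.

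The closest genes to Tnfaip6 were Adamts19 (0.20), Rxfp3 (0.22), Carmil1 (0.22), Tpbg (0.23) and Kif5c (0.24), and Tpbg shares 23.5% of its exon bases with another gene. For Has1 they were Hk2, which encodes a hexokinase (0.12), Nphp4 (0.16), Notch2 (0.16), Ngef (0.21) and Phgdh (0.21). Among the 6 genes, the closest pair was Has1 and Vcan (0.29), then Tnfaip6 and Vcan (0.34) and Tnfaip6 and Has2 (0.37), and the farthest was Ptx3 and Cd44 (1.69). These distances rest on 6 libraries that share dates, sorts and depth, and they describe likeness only.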

How the data were processed

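The deposited values are counts of reads per gene, which the authors made without normalization from unstranded SMART-Seq reads mapped to mm10 with STAR 2.5.2a and counted with QuasR on Ensembl genes. Positions and exon lengths came from GENCODE M21. Protein-coding genes that exceeded 1 CPM in 2 or more libraries were tested in edgeR 4.0.16 (R 4.3.3) with TMM factors, glmQLFit and glmQLFTest. The sorting date was a covariate, as in the study's methods, and the date was tested in the same fit. With this model in an earlier edgeR release, the study reported genes that differed by genotype after adjustment. Most were lower in flt3L-/-, and Ror1 was among them. Ptx3, Tnfaip6, Has1, Has2, Vcan and Cd44 were not among the genes the study reported. The order of genes by p-value thus differed from the one here, in which Ptx3 came first among the lower genes. Why no gene was called here, and why the order differed, was not tested. Adjusted p-values are Benjamini-Hochberg values. Log2 values used a prior count of 2, and standard errors were derived from the F statistic. The scripts were tested on simulated data. The pairing comes from the sorting dates. After removal of the group means, libraries of the same date correlated at 0.180, 0.104 and 0.116 over genes, and wt and flt3L-/- libraries of different dates at −0.354 to 0.247, of which 2 (0.247 and 0.191) exceeded every same-date value. Libraries correlated at 0.914 to 0.976 in log2 CPM, and none was a copy of another. Each library is a separate sort of pooled mice.

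The 6 genes and all lists were chosen with earlier results of these data known. Named besides the 6 genes and Flt3l are, of each list, the 2 most abundant tested genes and those with an unadjusted p under 0.05, and the 5 genes most like Ptx3, Tnfaip6 and Has1. Has3, Crp, Apcs, marker genes and SP genes were named for their known roles, and the result of 1 listed gene is not reported here. Alternatives were DESeq2 1.42.0, other scalings and filters, no replicate block and each pair left out.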

Additional observations from a re-analysis of the deposited data

How the results depend on the processing

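For the genotype, edgeR's quasi-likelihood test called 0 genes and DESeq2 called 21, 6 higher and 15 lower, and the cause was not tested. For the date, edgeR called 0 genes, DESeq2 389, and the fits without 1 pair between 0 and 106, the latter without pair 2. The replicate numbers mark the sorting date, so the design held a replicate block. With no replicate block 0 genes were called for the genotype and 262 had an unadjusted p under 0.05, against 484 with it, and all 6 genes kept their sign.

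With all libraries kept, the fitted log2 fold change of Ptx3 lay between −1.52 and −1.34, and between −1.61 and −1.33 without 1 pair. The choice of Ptx3 by its p-value favours such a narrow range. Tnfaip6 ranged from −1.38 to −0.40 without 1 pair, Has2 from −0.83 to −0.22, Vcan from −1.41 to −0.44, Has1 from −1.17 to 0.12 and Cd44 from −0.73 to 0.17. Relative to the fibroblast sum, chosen after seeing the data, the mean pair difference was −0.67 for Ptx3, and the sign turned for Tnfaip6 (0.056), Has1 (0.10), Has2 (0.31) and Cd44 (0.46). Without the collagens it was −0.83 for Ptx3 and turned for Has2 (0.16) and Cd44 (0.30). Relative to the pericyte and smooth muscle sum it was −1.02 for Ptx3 and turned for Cd44 (0.11). Without 1 pair, list medians ranged from −0.31 to 0.066 for synthesis, 0.062 to 0.12 for breakdown (0.12 without pair 2), −0.34 to 0.053 for the inflammatory genes, −0.15 to 0.15 for the Cd44 partners, −0.12 to 0.15 for the ligands of PTX3, −0.57 to 0.49 for the other pentraxins, −0.72 to −0.30 for the versican partners, −0.58 to −0.053 for lecticans and link proteins and −1.02 to −0.38 for the inter-alpha-inhibitor chains. The order of the lists therefore differed between fits. Low levels, such as those of Crp and Gfap, limit what these depths can show.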
